A study of Homo sapiens with 20 samples.

Results

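The comparison described here asks which genes of a corneal epithelial line did not follow the dose of SPARC in one direction. SPARC is a secreted glycoprotein of the matricellular kind, which binds collagen and modulates how cells attach to and remodel the matrix around them, and in the cornea it is known from wound repair. The cells were hTCEpi, a human corneal epithelial line immortalized with telomerase and grown in keratinocyte medium. Every group shared that line, the medium and an exposure of 24 h, and the groups differed in recombinant human SPARC alone: none (control), 0.05 µg/ml (SPARC 0.05), 0.5 µg/ml (SPARC 0.5) or 5 µg/ml (SPARC 5). Each group had 5 RNA-seq samples. The labels do not say whether the 5 came from separate cultures, so the p-values measure the spread between these samples, which may be technical.

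For each gene the mean log2 level at the 2 low doses, SPARC 0.05 and SPARC 0.5, was set against the mean of control and SPARC 5. A gene that rises or falls by equal steps from control to the low doses and on to SPARC 5 has a value near 0 in this contrast. A positive value means that the low doses lay above the straight line from control to SPARC 5, and a negative value that they lay below it. All 22938 genes with enough counts entered the test, of 60671 gene identifiers in the table. Because the concentrations are spaced by a factor of 10, a gene that responded at 5 µg/ml alone also has a value away from 0, so a bend in the curve is not yet a turn. A gene was said to have turned back only where it also differed, in the same direction, in both steps of the curve: low doses against control and low doses against SPARC 5.

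As background, dose curves that turn back are known for many secreted factors and hormones. Matricellular proteins act through more than one binding partner, including collagens, integrins and growth factors, and TGF-beta, with which SPARC is functionally linked, drives synthesis of matrix and of the integrins that hold it. Epithelial cells of the basal kind make laminin, anchoring collagen and keratin as part of the same programme of attachment to the basement membrane.

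The samples held between 31955358 and 50112286 counts. KRT5, a keratin of basal epithelial cells, had a median of 11300 CPM (reads of a gene relative to the scaled total of its library) and TP63, a basal transcription factor, a median of 273 CPM, while PAX6, the eye field regulator, had a median of 7.41 CPM and KRT12, the keratin of differentiated cornea, had at most 4 counts in any sample. KERA, a marker of stromal keratocytes, had 0 counts in every sample and PTPRC, of leukocytes, at most 7. In bulk samples such as these, fewer cells of a type and less RNA per cell cannot be told apart. SPARC's own transcript, at 0 to 23 counts a sample, was not tested. Libraries differed in how their levels followed the GC content of genes: the mean correlation with GC content was 0.128 ± 0.106 (SD, n = 5) in control, against -0.0355 ± 0.0323 at SPARC 0.05, -0.0596 ± 0.0434 at SPARC 0.5 and -0.0401 ± 0.0837 at SPARC 5, and the highest were control replicate 3 (0.270) and control replicate 2 (0.164). Because this difference runs between control and every treated group, SPARC 5 included, a fit with the GC content and length of genes taken out was also made. In that fit SPARC 5 against control was called at 2512 genes, against 2665 without the correction. Values of the corrected fit are given below for many of the genes and lists. Where no such value is given, the result may have changed in that fit.

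Most genes that departed from a straight curve were classed as late: a difference between the low doses and 5 µg/ml was called, and a turn was not. The contrast was called at 651 genes (edgeR quasi-likelihood test, Benjamini-Hochberg adjusted p under 0.05), which is 2.84% of those tested. Of these, 197 (0.859%) were higher and 454 (1.98%) lower at the low doses than at the outer groups. The median over all genes was -0.002 on the log2 scale. With library sizes alone as the scaling, 43.7% of the called genes were higher at the low doses, against 30.3% with the scaling used here.

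The called genes fell into 6 shapes. The late rises, 407 genes, were lower at the low doses than at SPARC 5 with no fall from control called. Of them 329 were also higher at SPARC 5 than in control. The late falls, 128 genes, were higher at the low doses than at SPARC 5 with no rise from control called. Of these 69 were also lower at SPARC 5 than in control. Both low-dose means lay outside both outer means in 168 late rises and 92 late falls, so these shapes rest on which steps were called. Early rises, 36 genes, and early falls, 20 genes, had moved from control by the low doses, with no return called between the low doses and SPARC 5. Only 13 genes (0.0567% of those tested) turned back with the low doses high, and 12 (0.0523%) turned back with the low doses low. The other 35 called genes, 20 higher and 15 lower, passed in the contrast but in neither step of the curve. For scale, the steps of the curve and its ends were called at different rates: 1.77% of genes for the low doses against control (405), 8.41% for the low doses against SPARC 5 (1930), 11.6% for SPARC 5 against control (2665) and 0.179% for SPARC 0.5 against SPARC 0.05 (41). These comparisons share samples, so the 4 rates are not independent of each other.

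**Figure D1:**
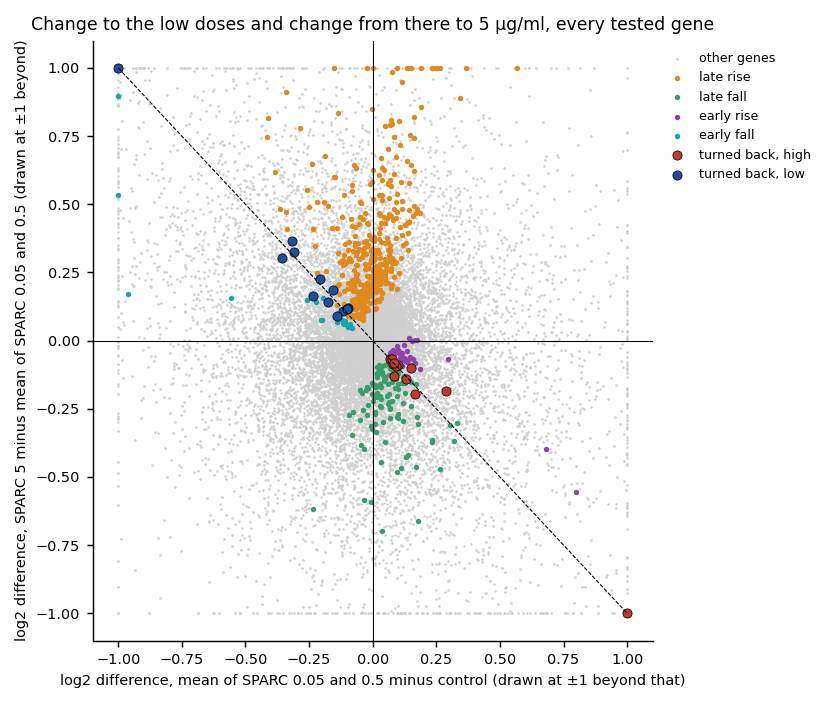
Each point is 1 of the 22938 tested genes; the horizontal axis is the log2 difference between the low doses and control, the vertical axis the log2 difference between SPARC 5 and the low doses, and values beyond 1 in size are drawn at the edge. The 25 genes that turned back lie along the dashed diagonal, where the first step is undone by the second, and the 407 late rises stand over the middle of the horizontal axis.

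The genes that turned back with the low doses high included MALAT1, an abundant long noncoding RNA kept in the nucleus, the chaperone HSP90AA1, the cystine transporter SLC7A11, and several proteins of the dividing nucleus. Each of these changes was small. Among the 23 turned-back genes that reached 1 CPM in at least 1 group, the contrast was between 0.0685 and 0.341 in size on the log2 scale. None of the 25 differed between SPARC 5 and control.

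MALAT1 (ENSG00000251562, GRCh38 chromosome 11, 65497688 to 65506516) was the most abundant of them. Its levels were 6960, 7200, 7380, 7360 and 7210 CPM in control, 7880, 8470, 8390, 7850 and 8220 at SPARC 0.05, 7610, 7850, 7960, 8210 and 7680 at SPARC 0.5, and 7390, 7200, 7580, 7660 and 7510 at SPARC 5. All 10 low-dose samples lay above every control sample, and 9 of the 10 above every outer sample; the exception was SPARC 0.5 replicate 1. The log2 contrast was 0.13 ± 0.01 (SE, adjusted p = 1.08e-07), with 0.15 ± 0.02 over control (adjusted p = 1.86e-06) and 0.10 ± 0.02 over SPARC 5 (adjusted p = 8.73e-05). MALAT1 kept this shape in each of the 20 fits that left out 1 library and with either low dose alone, and its contrast was 0.113 (adjusted p = 1.25e-07) once GC content and length were corrected for. NEAT1, the other abundant nuclear noncoding RNA, was at 376 ± 14.9, 422 ± 29.6, 388 ± 16.5 and 382 ± 19.7 CPM in order of dose and did not pass (0.10 ± 0.03, adjusted p = 0.172).

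HSP90AA1 (ENSG00000080824, chromosome 14, 102080738 to 102139699) encodes the stress-inducible cytosolic HSP90. It stood at 1330, 1410, 1370, 1430 and 1370 CPM in control, at 1470, 1490, 1430, 1470 and 1390 at SPARC 0.05, at 1440, 1440, 1500, 1520 and 1460 at SPARC 0.5, and at 1300, 1300, 1320, 1400 and 1360 at SPARC 5. SPARC 0.05 replicate 5 was the 1 low-dose sample that fell among the controls. The contrast was 0.11 ± 0.02 (adjusted p = 1.79e-07) and was 0.103 (adjusted p = 1.51e-07) after the GC correction, with the shape retained. HSP90AA1 turned back in 19 of the 20 fits that left out 1 library and with SPARC 0.5 alone, but not with SPARC 0.05 alone or with limma voom. Of 17 heat shock genes tested, HSPD1, the mitochondrial chaperonin, was the only other one called (0.10 ± 0.02, adjusted p = 1.11e-05), and it was a late fall, at 648 ± 18.2, 665 ± 12.0, 671 ± 19.9 and 602 ± 20.1 CPM. HSP90AB1, the constitutive partner of HSP90AA1, did not pass (0.03 ± 0.01, adjusted p = 0.344). The median contrast of the heat shock list was 0.00559, and over all genes 0.859% were called higher.

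SLC7A11 (ENSG00000151012, chromosome 4, 138164097 to 138242349), the transporter that brings in cystine for glutathione, was 1 of 5 genes (0.0218% of those tested) for which the 10 low-dose samples and the 10 others did not overlap. Control samples were at 98.2, 92.2, 92.1, 98.5 and 101 CPM, SPARC 0.05 samples at 113, 106, 103, 102 and 105, SPARC 0.5 samples at 110, 103, 103, 104 and 105, and SPARC 5 samples at 88.8, 96.2, 97.6, 94.3 and 101. The contrast was 0.14 ± 0.02 (adjusted p = 3.23e-05). After the GC correction the contrast was 0.109 (adjusted p = 0.000837), but the difference from control was 0.0542 and no longer called (adjusted p = 0.524), so that SLC7A11 was placed with the late falls. CKAP5, which helps microtubules grow, and HNRNPA1, a splicing regulator, also had no overlap. CKAP5 ranged from 354 to 373 CPM in the low-dose samples and from 333 to 351 in the others (0.07 ± 0.02, adjusted p = 0.00313). HNRNPA1, which has many processed copies in the genome that could share its reads, had a median of 673 CPM against 641 (0.07 ± 0.02, adjusted p = 0.00203). The remaining 2 of the 5, EPRS1 (a late fall, 0.07 ± 0.02, adjusted p = 0.00933) and KIFC3 (a late rise, -0.15 ± 0.02, adjusted p = 4.14e-07), were chosen after their values were seen. Both CKAP5 and HNRNPA1 became late falls after the GC correction, with a difference from control of 0.0458 (adjusted p = 0.365) and 0.0484 (adjusted p = 0.235).

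HMMR, a spindle and hyaluronan-binding protein, was at 45.8, 52.2, 55.4, 56.9 and 53.7 CPM in control, at 60.7, 58.7, 57.1, 60 and 57.2 at SPARC 0.05, at 58.3, 61.7, 61.9, 60 and 56.6 at SPARC 0.5, and at 47.8, 48.3, 53.6, 52.1 and 56.3 at SPARC 5. The lowest low-dose sample was below the highest control sample, and the other 9 were above all 10 outer samples (0.18 ± 0.03, adjusted p = 2.65e-05). LMNB1, a lamin of the nuclear envelope, was between 185 and 201 CPM at the low doses and between 174 and 195 in the outer samples (0.08 ± 0.02, adjusted p = 0.00576). LMNB1 kept its shape after the GC correction (0.0908, adjusted p = 0.000854) but in only 5 of the 20 fits that left out 1 library. HMMR kept it in 19 of those fits and lost it to the GC correction, where its difference from control was 0.12 (adjusted p = 0.127).

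The rest of the high group held 2 kinases of the DNA damage response, ATR and (described, with HNRNPA1 and STEAP1B, after its values were seen) PRKDC, with the chromatin factor CDCA7, the RNA-binding protein HNRNPA3 and the presynaptic scaffold PCLO. PRKDC had a median of 1160 CPM in the low-dose samples and 1100 in the others (0.07 ± 0.01, adjusted p = 0.000558). ATR had medians of 141 and 129 (0.09 ± 0.02, adjusted p = 0.00321), with SPARC 0.05 samples at 138 to 143 and SPARC 0.5 samples at 129 to 141. ATM, the third kinase of that family, was chosen after its values were seen and did not pass (0.01 ± 0.02, adjusted p = 0.912). PCLO had the largest contrast of those above 1 CPM, 0.24 ± 0.05 (adjusted p = 0.00127), with medians of 22.4 against 19.2 CPM; SPARC 5 replicate 5, at 25.9 CPM, lay above 9 of the 10 low-dose samples. STEAP1B was under 1 CPM in the mean of every group: 4 low-dose samples were between 0.992 and 1.29 CPM and the other 6 between 0.0599 and 0.393, so that its contrast of 2.22 ± 0.49 (adjusted p = 0.00313) came from 4 libraries of both doses. It did not pass with limma voom (adjusted p = 0.331), and STEAP1B has a close paralog, STEAP1, with which reads could be shared. After the GC correction PRKDC, ATR, CDCA7, HNRNPA3 and STEAP1B were placed with the late falls.

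**Figure D2:**
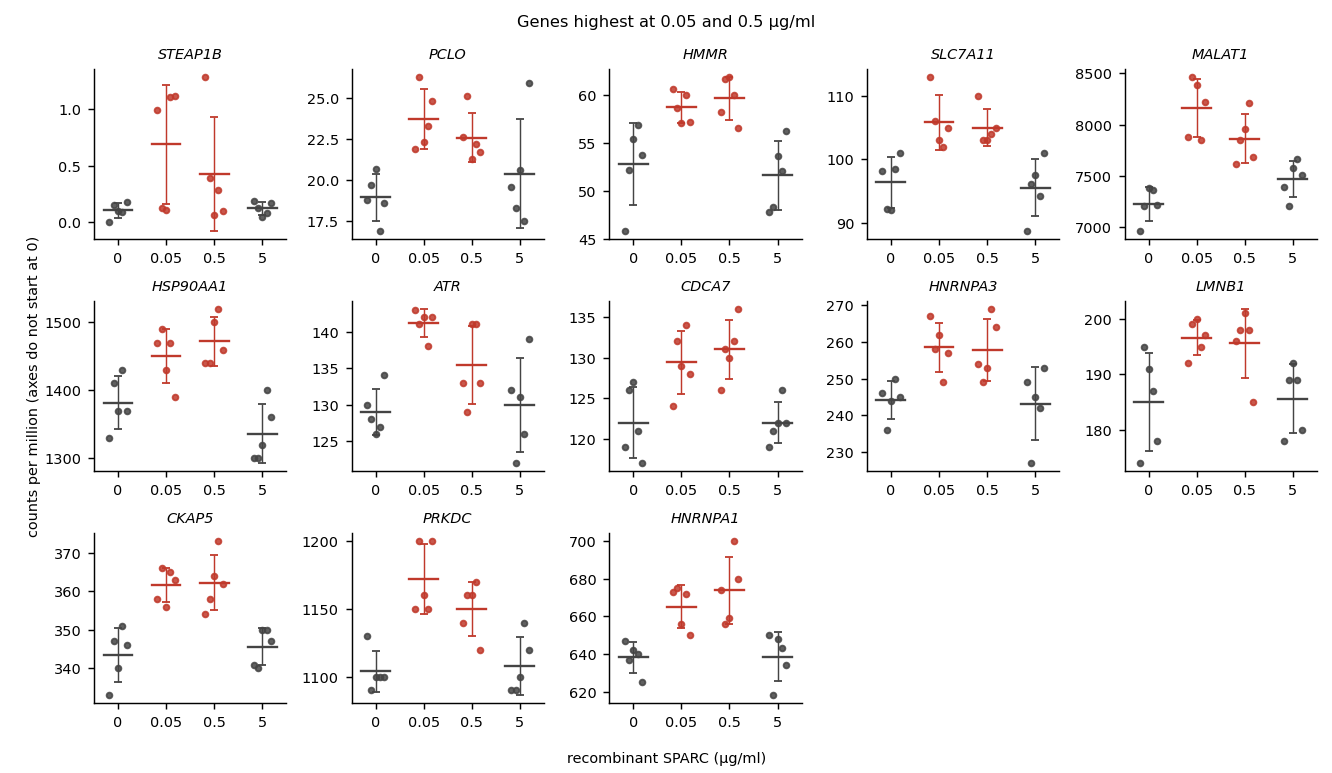
CPM in every sample for the 13 genes that turned back with the low doses high; points are samples, bars are means and whiskers are SD (n = 5), with low doses in red. SLC7A11, CKAP5 and HNRNPA1 have no overlap between red and grey points, while STEAP1B is high in 4 samples only.

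Among the genes that turned back with the low doses low, 2 had the lowest adjusted p. They were ABCG1, which exports cholesterol from cells, and IER3, an early response gene that protects from apoptosis. ABCG1 (ENSG00000160179, chromosome 21, 42199689 to 42297244) was at 23.1, 20.8, 18.3, 20 and 20.7 CPM in control, at 17.5, 16, 15.4, 15.6 and 17.6 at SPARC 0.05, at 18.8, 17.2, 15.6, 14.7 and 16.9 at SPARC 0.5, and at 20.8, 20.9, 19.7, 23.3 and 21.6 at SPARC 5. The only low-dose sample inside the outer range was SPARC 0.5 replicate 1, above control replicate 3. Its contrast was -0.34 ± 0.05 (adjusted p = 2.15e-07), with -0.32 ± 0.06 against control (adjusted p = 0.000507) and -0.37 ± 0.06 against SPARC 5 (adjusted p = 1.08e-06). The related exporter ABCA1, chosen after its values were seen, had another shape: it was a late rise, at 9.43 ± 1.91, 9.27 ± 0.662, 10.7 ± 1.23 and 16.8 ± 2.39 CPM (-0.33 ± 0.07, adjusted p = 0.00358).

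IER3 (ENSG00000137331, chromosome 6, 30743199 to 30744554) was at 107, 105, 98.6, 96 and 107 CPM in control, at 90.3, 79.7, 87.4, 87.3 and 83.6 at SPARC 0.05, at 98.1, 94.7, 86.8, 87.6 and 97.2 at SPARC 0.5, and at 109, 110, 95.4, 100 and 107 at SPARC 5. Every SPARC 0.05 sample was below every outer sample, and 2 SPARC 0.5 samples overlapped them. The contrast was -0.22 ± 0.03 (adjusted p = 4.11e-08). ABCG1 and IER3 kept the shape in all 20 fits that left out 1 library, with either low dose alone and after the GC correction (contrasts of -0.326 and -0.192, adjusted p = 6.74e-07 and 1.96e-05). Among 37 immediate early genes and genes of EGFR signalling, 5 were called, all lower at the low doses, where over all genes 1.98% were called lower. The median was -0.0199. Besides IER3 the 5 were KLF6, KLF4, JUN and JUND, which were late rises. KLF6 went from 125 ± 6.18 CPM in control to 164 ± 4.43 at SPARC 5, with 128 ± 6.85 and 133 ± 4.81 between (-0.13 ± 0.02, adjusted p = 1.53e-05). JUN and JUND did not pass after the GC correction (adjusted p = 0.0594 and 0.319).

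The other 10 were 2 collagen genes, 2 transporters or pump subunits and a mix of other functions. FOXD4L6, under 1 CPM in the mean of every group, had a large contrast (-2.36 after the GC correction, adjusted p = 0.00667). The contrasts of the rest were at most 0.33 in size. COL18A1, a basement membrane collagen whose end fragment is endostatin, had a median of 38.8 CPM in the low-dose samples and 43.7 in the others (-0.17 ± 0.04, adjusted p = 0.00146). COL27A1, a fibrillar collagen, had medians of 108 and 116 CPM (-0.12 ± 0.02, adjusted p = 0.000773). FBXL19, an F-box protein that binds CpG-rich DNA, had all 5 SPARC 0.05 samples between 97 and 102 CPM and all 10 outer samples between 105 and 113 (-0.11 ± 0.02, adjusted p = 0.000263). It kept its shape in the 20 fits that left out 1 library, but not with SPARC 0.5 alone. After the GC correction its difference from control was -0.0652 (adjusted p = 0.308). TCIRG1, a subunit of the proton pump of acid compartments, had medians of 130 and 143 CPM (-0.11 ± 0.02, adjusted p = 0.000853), and SLC25A42, a mitochondrial carrier of coenzyme A, medians of 4.83 and 6.2 CPM (-0.33 ± 0.08, adjusted p = 0.00979). WHRN, KCTD17, AVPI1 and ZNF219 had contrasts of -0.32 ± 0.07, -0.20 ± 0.04, -0.16 ± 0.04 and -0.11 ± 0.02. Except for FOXD4L6, none of the 10 turned back after the GC correction. COL27A1 then passed in neither step of the curve, and the others were placed with the late rises. Their adjusted p against control ran from 0.071 (COL27A1) to 0.635 (TCIRG1). ZNF219 and FOXD4L6 were described after their values were seen. FOXD4L6, 1 of a family of near-identical FOXD4-like copies between which reads could be split, was between 0 and 0.192 CPM at the low doses and between 0 and 0.624 in the outer samples, and it did not pass with limma voom (adjusted p = 0.074).

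**Figure D3:**
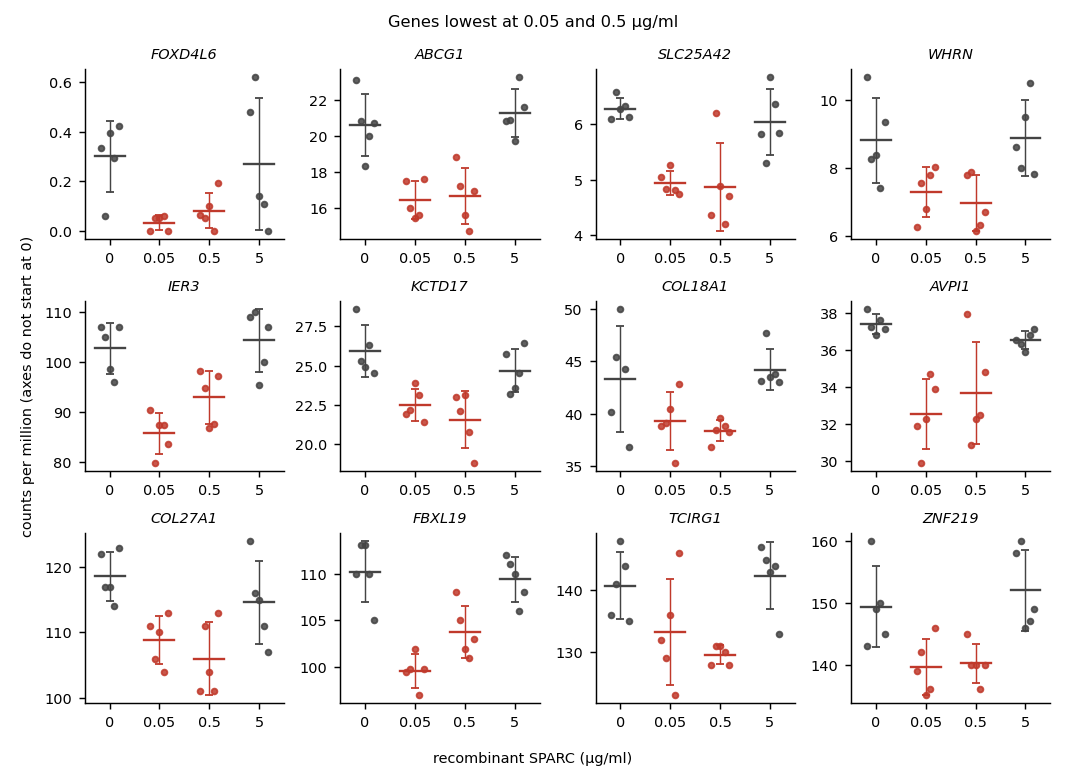
CPM in every sample for the 12 genes that turned back with the low doses low; points are samples, bars are means and whiskers are SD (n = 5), with low doses in red. ABCG1 and IER3 have the lowest adjusted p, and FOXD4L6 is near 0 throughout.

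Base composition moved with the turned-back genes. The 13 that were high at the low doses had a median GC content of 42.75% and the 12 that were low a median of 62.4%, against 47.95% for genes not called. Above 1 CPM, the high group ran from 35.4% to 51.1% and the low group from 53.7% to 70.1%, so the groups did not overlap in GC content. In the fit with GC content and length taken out, all 25 genes still passed in the contrast, but only 4 of 13 (MALAT1, HSP90AA1, PCLO and LMNB1) and 3 of 12 (ABCG1, IER3 and FOXD4L6) still turned back. PCLO turned back in 8 of the 20 fits that left out 1 library and not with SPARC 0.5 alone, and FOXD4L6 in 14 of the 20 and with neither low dose alone. The part of base composition in the other 18 was not tested further. With library sizes alone as the scaling, 6 of the 13 and 8 of the 12 kept their shape. In the same corrected fit 9 other genes turned back with the low doses high, and 3 of them act in lipid synthesis: FASN, the fatty acid synthase (0.124, adjusted p = 1.67e-13), ACSS2, which makes acetyl-CoA from acetate (0.154, adjusted p = 5.27e-05), and ACLY, which makes it from citrate (0.061, adjusted p = 0.00478). Without the correction FASN was at 4994 ± 281, 5395 ± 87.8, 5227 ± 137 and 4988 ± 216 CPM in order of dose and did not pass (0.09 ± 0.02, adjusted p = 0.0681).

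**Figure D4:**
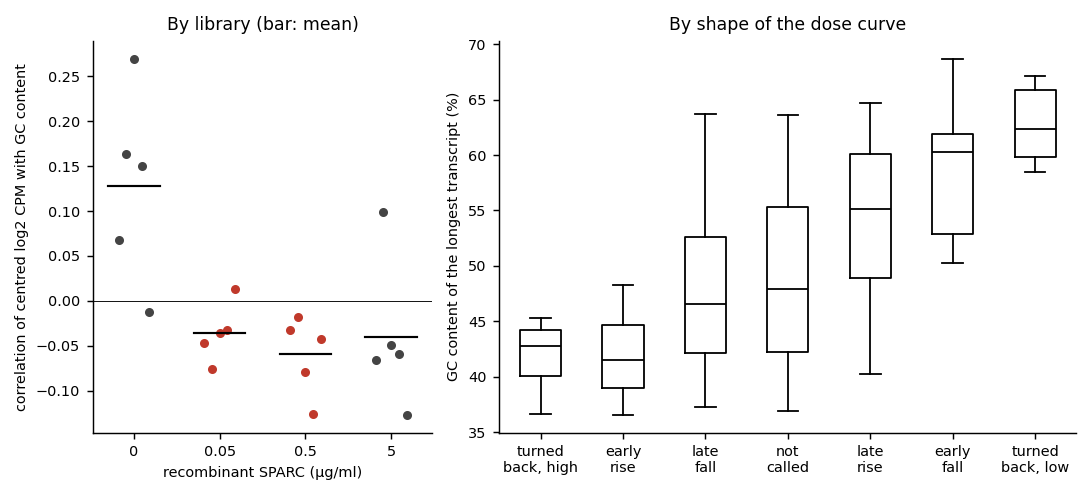
Left, the correlation over genes between a library's log2 CPM, centred per gene, and GC content, by dose, with 1 point per sample; right, GC content of the longest transcript by shape of the dose curve (box, quartiles; whiskers, 5th to 95th percentile). The 2 highest samples on the left are controls, and the turned-back low genes (median 62.4%) and high genes (median 42.75%) lie at opposite ends on the right.

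Early rises included genes of sterol and fatty acid synthesis and of mitosis. These were already above control at the low doses, with no fall called between there and 5 µg/ml. The largest contrasts among early rises were those of AC245100.7 and LAMA1, given further below. HMGCS1 (ENSG00000112972), an enzyme at the head of sterol synthesis, was at 193, 192, 192, 183 and 180 CPM in control, 232, 226, 230, 223 and 217 at SPARC 0.05, 221, 238, 240, 248 and 236 at SPARC 0.5, and 207, 219, 234, 229 and 214 at SPARC 5. No treated sample was as low as any control sample, and the SPARC 5 samples overlapped those of both low doses. HMGCS1 had the smallest p of all genes higher at the low doses (0.18 ± 0.02, adjusted p = 5.53e-11). It was 0.30 ± 0.03 above control at the low doses (adjusted p = 1.78e-15), and the step down to SPARC 5 was not called (0.07 ± 0.02, adjusted p = 0.0827). INSIG1, the ER brake on sterol synthesis, had the same shape (0.08 ± 0.02, adjusted p = 0.0134), and its low doses differed from SPARC 5 by -0.00 ± 0.03 (adjusted p = 0.974).

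HMGCS1 and INSIG1 were among the 3 called of 25 genes of sterol synthesis and uptake, all higher at the low doses, and 19 of the 25 had a positive contrast with a median of 0.0247; over all genes 0.859% were called higher and 11250 of 22938 were positive. SCD, the desaturase that makes monounsaturated fat, was also an early rise, from a range of 2960 to 3180 CPM in control to between 3370 and 3490 at the low doses and between 3270 and 3560 at SPARC 5 (0.08 ± 0.01, adjusted p = 2.97e-05). It was 1 of 3 called among 17 genes of fatty acid synthesis and desaturation, of which 14 had a positive contrast, with a median of 0.0459. ACACA, which makes malonyl-CoA, was a late fall (0.07 ± 0.02, adjusted p = 0.00313), and FADS2, a desaturase of polyunsaturated fat, a late rise (-0.09 ± 0.02, adjusted p = 0.0179). After the GC correction HMGCS1, INSIG1 and SCD kept their shape, while FADS2 did not pass (adjusted p = 0.15). The sterol list then held 5 calls and the fatty acid list 4, all higher at the low doses. Over all 22938 genes the corrected fit called 246 higher and 329 lower.

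Of 32 genes of G2/M and mitosis, 8 were called, all higher at the low doses, and 28 had a positive contrast, with a median of 0.0583, where over all genes 0.859% were called higher and 11250 of 22938 were positive. Besides HMMR they were CENPF, ASPM, TOP2A, MKI67 and KIF11, which were early rises, BUB1B, a late fall, and CENPE. MKI67, the proliferation antigen, was at 887 ± 42.8, 966 ± 28.9, 973 ± 37.2 and 920 ± 36.7 CPM in order of dose (0.10 ± 0.02, adjusted p = 0.0106). CENPF, a kinetochore protein, was at 321 ± 9.02, 348 ± 9.87, 350 ± 17.0 and 334 ± 15.2 CPM (0.09 ± 0.02, adjusted p = 0.000912). These transcripts are poor in GC, CENPF at 40.8% and ASPM at 37.1%, and after the GC correction 5 of the 8 were still called, each then as a late fall, since the rise from control was no longer called (CENPF 0.0724, adjusted p = 0.122; MKI67 0.1, adjusted p = 0.0973). TOP2A, KIF11 and CENPE lost their call. Of 28 genes of G1/S and replication, none was called, with 20 positive and a median of 0.0236.

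Early falls were few. KAZALD1, a secreted IGF-binding-like protein, was at 6.16, 4.98, 5.02, 6.26 and 6.01 CPM in control, 3.5, 4.03, 3.09, 4.37 and 3.98 at SPARC 0.05, 3.14, 3.75, 4.33, 4.36 and 3.95 at SPARC 0.5 and 4.61, 3.99, 4.95, 3.91 and 4.02 at SPARC 5. All 15 treated samples were below all controls, and the SPARC 5 samples overlapped those of the low doses (-0.36 ± 0.09, adjusted p = 0.014). CRIM1-DT, a divergent noncoding transcript, had a contrast of -0.84 ± 0.24 (adjusted p = 0.0283) and Z98885.3 one of -0.57 ± 0.16 (adjusted p = 0.0238). The sources used here do not say whether counting used strand, so their reads cannot be told apart from those of any gene that overlaps them. DNER, a Notch ligand (-0.21 ± 0.06, adjusted p = 0.0459), and the zinc finger gene ZNF408 (-0.18 ± 0.05, adjusted p = 0.0144) completed the 5 largest. With 1 library left out, CRIM1-DT passed in 11 of 20 fits, Z98885.3 in 14 and DNER in 7. DNER and ZNF408 did not pass after the GC correction (adjusted p = 0.0612 and 0.0602), and only 4 of the 20 early falls and 6 of the 36 early rises kept their shape there. Among early rises, AC245100.7 had a median of 1.66 CPM at the low doses and 0.983 in the outer samples (0.68 ± 0.17, adjusted p = 0.0122). LAMA1, a laminin chain, had medians of 2.72 and 1.83 CPM (0.54 ± 0.14, adjusted p = 0.0103). LONRF1, a ubiquitin ligase, had 33.3 and 30.9 CPM (0.14 ± 0.04, adjusted p = 0.0142, and 0.0691 without SPARC 0.05 replicate 5). PDE4DIP, a centrosome and Golgi anchor, had 77.5 and 70.5 CPM (0.12 ± 0.03, adjusted p = 0.00143). After the GC correction PDE4DIP turned back high (0.116, adjusted p = 0.00263), while AC245100.7, LAMA1 and LONRF1 kept their shape.

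Late falls included genes of the antioxidant programme. GSR (ENSG00000104687), which regenerates glutathione, was at 203, 207, 213, 207 and 200 CPM in control, 200, 201, 203, 202 and 207 at SPARC 0.05, 205, 194, 199, 194 and 189 at SPARC 0.5 and 147, 150, 161, 156 and 150 at SPARC 5. The low-dose samples overlapped the controls, and all 5 SPARC 5 samples lay below every other sample (0.17 ± 0.02, adjusted p = 1.17e-10). EPCAM, an epithelial adhesion molecule, was between 82.7 and 91.2 CPM in control, 81.2 and 92.2 at the low doses and 67.1 and 71.9 at SPARC 5 (0.16 ± 0.02, adjusted p = 1.23e-06). Of 22 NRF2 and oxidative stress genes, 4 were called, all higher at the low doses, and 16 were positive, with a median of 0.0319. Over all genes 0.859% were called higher and 11250 of 22938 were positive. The 4 were GSR, TXNRD1 (0.13 ± 0.02, adjusted p = 2.27e-06) and FTL (0.09 ± 0.02, adjusted p = 0.00405) as late falls, and SLC7A11. After the GC correction 6 of the list were called, all higher, where 246 of all 22938 genes were called higher. PPL, a protein of the cornified envelope, also fell late (0.16 ± 0.03, adjusted p = 4.88e-05). CYP1B1, which metabolizes hydrocarbons and retinoids, was between 4.97 and 7.39 CPM in control, 5.03 and 7.29 at the low doses and 2.9 and 4.41 at SPARC 5 (0.37 ± 0.09, adjusted p = 0.00405). Other late falls of the largest contrast were the noncoding AC006452.2 (0.42 ± 0.11, adjusted p = 0.0145) and AL355488.1 (0.34 ± 0.10, adjusted p = 0.0341, and 0.0663 after the GC correction; called in 10 of 20 fits that left out 1 library), RAB7B, a GTPase of endosomes (0.37 ± 0.09, adjusted p = 0.00748), and the kinase WNK2 (0.32 ± 0.08, adjusted p = 0.00687).

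Late rises included 19 of the 31 tested genes of TGF-beta and matrix response. Other matrix genes had other shapes: COL18A1 and COL27A1 turned back low and LAMA1 was an early rise. After the GC correction LAMA1 kept its shape, but COL18A1 was placed with the late rises and COL27A1 passed in neither step of the curve. TGFBI (ENSG00000120708), the matrix protein mutated in corneal dystrophies, was at 469, 475, 462, 454 and 461 CPM in control, 458, 475, 480, 460 and 463 at SPARC 0.05, 553, 533, 538, 533 and 552 at SPARC 0.5 and 1030, 959, 967, 948 and 953 at SPARC 5. SPARC 0.05 overlapped control, SPARC 0.5 was above both, and SPARC 5 was above all (-0.42 ± 0.02, adjusted p = 3.31e-40). The low doses lay 0.12 ± 0.02 above control (adjusted p = 6.94e-05) and 0.95 ± 0.02 below SPARC 5 (adjusted p = 2e-64, low minus SPARC 5 = -0.95). ITGB6, the integrin chain that frees latent TGF-beta, had ranges of 51.3 to 55.1 CPM in control, 55.5 to 60.2 at SPARC 0.05, 61.4 to 68.7 at SPARC 0.5 and 130 to 145 at SPARC 5, with no overlap between any neighbouring groups (-0.49 ± 0.03, adjusted p = 1.18e-28).

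All 19 genes called in the list of TGF-beta and matrix response, of 31 tested, were late rises, where over all genes 1.98% were called lower. Of the 31, 1 had a positive contrast, and the median was -0.188. After the GC correction all 19 kept call and shape. FN1, fibronectin, had started early: it was at 688 ± 48.3, 885 ± 69.0, 1175 ± 71.3 and 2540 ± 92.3 CPM, 0.57 ± 0.05 above control at the low doses (adjusted p = 1.24e-05) and yet 1.32 ± 0.05 lower there than at SPARC 5 (low minus SPARC 5 = -1.32, adjusted p = 9.07e-13). COL7A1, the anchoring fibril collagen, had no early step called (adjusted p = 0.991): it was at 434 ± 19.9, 425 ± 13.0, 441 ± 10.0 and 649 ± 29.5 CPM (-0.29 ± 0.02, adjusted p = 7.8e-20). In all, 26 of the 407 late rises, 6 of them among these 19, were already above control at the low doses.

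**Figure D5:**
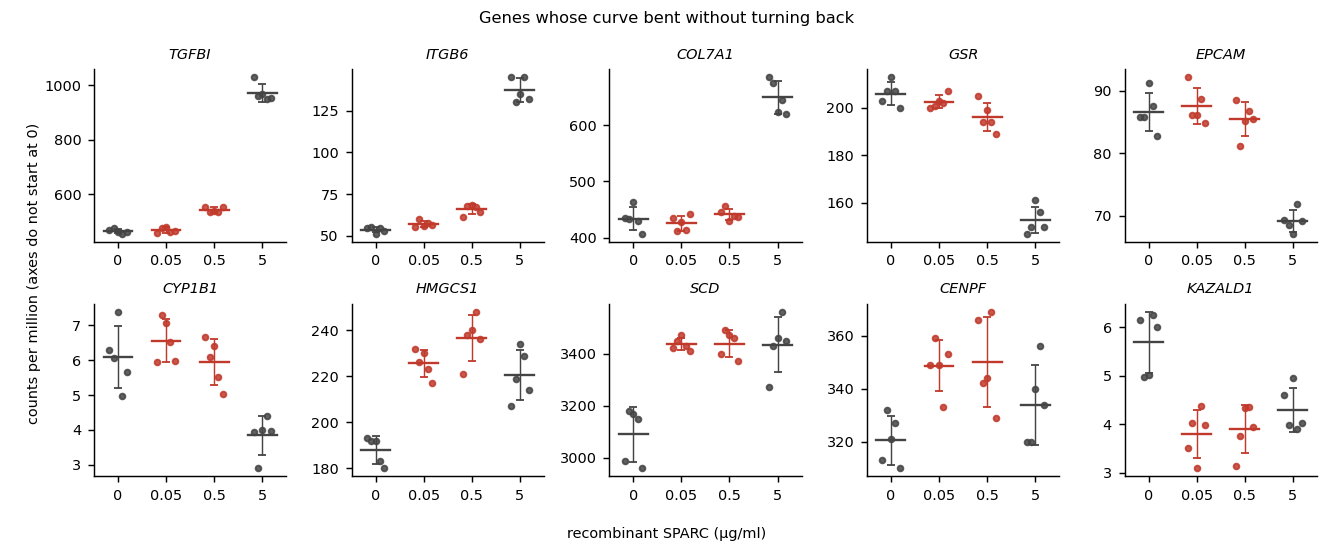
CPM in every sample for 10 genes whose curve bent without turning back; points are samples, bars are means and whiskers are SD (n = 5), with low doses in red. TGFBI, ITGB6 and COL7A1 moved mainly at 5 µg/ml, GSR, EPCAM and CYP1B1 fell there, and HMGCS1, SCD, CENPF and KAZALD1 had left the control level by the low doses.

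The largest late rises outside that list were genes of low level. IGFBP3, which binds insulin-like growth factors, was between 0.0604 and 0.441 CPM in control, 0 and 1 at the low doses and 2.86 and 5.97 at SPARC 5 (-1.98 ± 0.48, adjusted p = 0.0303). IGFBP3 did not pass without control replicate 1 or 4, SPARC 0.05 replicate 1 or 5 or SPARC 0.5 replicate 2, each left out alone (adjusted p between 0.0547 and 0.1). XYLT1, which starts glycosaminoglycan chains, was at 0.24 to 1.21 CPM at the low doses and 4.99 to 5.88 at SPARC 5 (-1.29 ± 0.17, adjusted p = 2.13e-08). TLL1, a protease that processes collagen, had 5.47 to 9.11 CPM at the low doses and 20.5 to 23.9 at SPARC 5 (-0.79 ± 0.06, adjusted p = 6.48e-18), and SULT1B1 and SPOCK1, a sulfotransferase and a SPARC-family proteoglycan, had contrasts of -0.81 ± 0.14 and -1.02 ± 0.25. PMEPA1, a feedback inhibitor of TGF-beta signalling, was between 35.4 and 41.6 CPM in control, 35.2 and 43.6 at SPARC 0.05, 46.9 and 54.1 at SPARC 0.5 and 115 and 131 at SPARC 5 (-0.61 ± 0.03, adjusted p = 2.05e-26). PTPRK, a receptor phosphatase (-0.36 ± 0.02, adjusted p = 4.13e-23), and FLRT2, an adhesion protein (-0.57 ± 0.04, adjusted p = 5.24e-21), completed the 5 smallest p-values.

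Over all genes 1.98% were called lower at the low doses and 0.859% higher. Other lists with late rises were the SPARC receptors, partners and family, with 5 of 18 called lower at the low doses and none higher (median -0.0954), led by ITGA5, the fibronectin receptor chain (-0.20 ± 0.03, adjusted p = 3.18e-08), and CTSB, a lysosomal protease (-0.10 ± 0.02, adjusted p = 0.00063). FGFR1, a growth factor receptor of that list, did not pass after the GC correction (adjusted p = 0.0528). Limbal and basal epithelial genes had 4 of 17 lower (median -0.0368). After the GC correction 5 of the 17 were lower, where 329 of all 22938 genes were called lower. Among these limbal and basal genes was KRT14 at 331 ± 25.0, 303 ± 13.1, 325 ± 24.0 and 465 ± 42.3 CPM (-0.33 ± 0.05, adjusted p = 0.000347). Stratified differentiation had 3 of 18 lower and 1 higher, and the 3 were the wound keratins KRT6A, KRT6B and KRT6C, near-identical copies between which reads could be split. KRT6B did not pass after the GC correction (adjusted p = 0.114). The lists of TGF-beta ligands and receptors (4 of 25), actin and SRF targets (3 of 23), YAP/TAZ targets (3 of 24) and the unfolded protein response (3 of 21) had calls on the lower side alone. Among TGF-beta ligands and receptors, SMAD7 and TGFB1 were lost after the GC correction (adjusted p = 0.117 and 0.43).

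Over all genes 2.84% were called in the contrast. Several lists held no called gene. They were the inflammatory and NF-kB targets (0 of 30, median -0.0252), cell junctions (0 of 25, median -0.00522), replication-dependent histones (0 of 40, median 0.013, with 34 positive), nuclear oxidative phosphorylation (0 of 50, median 0.000135) and cytosolic ribosomal proteins (0 of 74, median -0.00459). The medians of the junction and ribosomal lists were positive after the GC correction (0.00316 and 0.00497) and with library sizes alone (0.003 and 0.00335). Over all 22938 genes the corrected fit called 246 higher. After the GC correction 3 histone genes were called higher, H2AC14 (0.106, adjusted p = 0.00136), H4C1 (0.12, adjusted p = 0.027) and H1-3 (0.0627, adjusted p = 0.0412), as was C3, a complement component, of the NF-kB list (0.154, adjusted p = 0.0286). The 13 messenger RNAs of the mitochondrial genome all had a positive contrast, with a median of 0.0834, and none was called; MT-ND5, a subunit of complex I, came nearest (0.12 ± 0.03, adjusted p = 0.075). The share of counts on all genes of the mitochondrial genome, ribosomal RNAs included, was 3.73% ± 0.113 at the low doses and 3.54% ± 0.216 in the outer samples (SD, n = 10 each). This difference did not pass over the 7 library measures compared (permutation test with 100000 resamples, 2-sided p = 0.0129, adjusted p = 0.0906).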

How the data were processed

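RNA-seq of total RNA depleted of ribosomal RNA was made from 20 samples in 4 groups of 5. Per the submitters' processing notes, the tools named include STAR 2.7.9a, with featureCounts 2.0.3 of Subread and build GRCh38; the sources used here give neither annotation release nor strand setting. The table the authors deposited holds raw read counts per gene, not normalized, in 60871 entries. Equal counts repeated over 368 entries of 168 identifiers were kept once (0.278% to 0.296% of counts on repeated entries), which left 60671. Gene positions, GC content and length (of the longest transcript) are from GENCODE on GRCh38.

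From these counts, genes with enough reads were kept (filterByExpr, minimum count 10; 22938 genes), scaled by TMM and fitted with 1 mean per group in edgeR 4.0.16 (robust quasi-likelihood, R 4.3.3), and p-values were adjusted by Benjamini and Hochberg over all genes tested. A call is an adjusted p under 0.05. Group values are CPM ± SD, and fold changes are log2 ± SE. A turned-back gene was called in the contrast and in both steps of the curve with 1 sign; the low doses enter both steps, and control and SPARC 5 each enter 1. Samples of a group differed by more than counting noise in all 40 pairs (chi-square per gene between 4.09 and 9.55).

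Genes named are the 10 largest contrasts of each turned-back kind and the 5 largest of each other shape among genes of at least 1 CPM in a group, the 5 smallest p-values in each direction, and up to 3 members of each of 37 gene lists, with other list members as examples. The comparison, the members and the lists were chosen with earlier results of these data known. Alternatives were DESeq2 1.42.0, limma 3.58.1 voom, other scalings and filters, a correction for GC content and length (splines with 4 degrees of freedom), a replicate block, each low dose alone, and leaving out each library. Results for some list members are not reported here.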

Additional observations from a re-analysis of the deposited data

Results flagged for a closer look

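The 52 genes examined here were those named for a large contrast or a small p and the remaining turned-back genes. For these and for 7 library measures the 4 groups of 5 samples were examined, 236 groups of values in all. In 7 of these, all of genes, 1 sample stood apart from the other 4, with a gap of over 0.71 of the range; chance alone gives about 1 in 20 groups. In SPARC 5, COL18A1 was at 47.7 CPM in replicate 2 against 43 to 43.8 in the others, TCIRG1 at 133 in replicate 5 against 143 to 147, CYP1B1 at 2.9 in replicate 2 against 3.94 to 4.41, TGFBI at 1030 in replicate 1 against 948 to 967, and PMEPA1 at 115 in replicate 5 against 126 to 131. In control, replicate 2 had LONRF1 at 32 CPM against 28.9 to 29.7 and FOXD4L6 at 0.0604 CPM against 0.294 to 0.423.

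By the test of SPARC 0.5 minus SPARC 0.05, the low doses that the contrast averages differed from each other in 41 genes (0.179%) over all genes. Of the same 52 genes, which were chosen from these same data, 6 differed in that test, all higher at SPARC 0.5. On the log2 scale the differences were 0.453 for the protease TLL1, 1.43 for the noncoding CRIM1-DT, 0.214 for TGFBI, 0.206 for the integrin ITGB6, 0.312 for PMEPA1 and 0.248 for the adhesion gene FLRT2. For 5 of these, late rises all, the curve was thus already climbing between the low doses; CRIM1-DT, an early fall, was lowest at SPARC 0.05. Among genes named as list members, KRT7 (0.19, adjusted p = 0.000124) and CEBPB (0.20, adjusted p = 0.00617) were also higher at SPARC 0.5 than at SPARC 0.05.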

How the results depend on the processing

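None of the 52 genes examined above for samples that stood apart changed the sign of its contrast under the alternatives run. Which of a pair of shapes was more frequent did change: with library sizes only, early falls (31) outnumbered early rises (20), and turned-back low genes outnumbered high ones with SPARC 0.5 alone (10 against 8) and without control replicate 1 (8 against 7), control replicate 5 (13 against 9) or SPARC 0.05 replicate 3 (12 against 10). Turned-back and early shapes need a call against control, and their counts moved by over 1.5 times under several alternatives. Depth and 5 samples a group limit how well contrasts of about 0.1 on the log2 scale, near the median of the turned-back high genes (0.0938), can be detected.

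With library sizes only there were 239 late falls, 20 early rises and 31 early falls; with no filter, 70 genes differed between the low doses; with at least 1 CPM in 5 samples, 26 turned back high. The DESeq2 Wald test gave 349 genes higher, 708 called for low doses against control, 37 and 23 turned back high and low, 207 late falls, 75 early rises, 32 early falls and 83 between the low doses. The GC and length correction gave 188 against control, 3 turned back low, 203 late falls, 13 early rises, 5 early falls and 71 between the low doses. SPARC 0.05 alone gave 61 against control, 6 and 5 turned back high and low, 11 early rises and 3 early falls. SPARC 0.5 alone gave 185 calls (55 higher, 130 lower), 1100 against SPARC 5, 8 turned back high, 112 late rises, 34 late falls, 12 early rises, 8 early falls and 167 bent genes. At an adjusted p under 0.01 there were 353 calls (82 higher, 271 lower), 122 against control, 1186 against SPARC 5, 1680 for SPARC 5 against control, 4 and 3 turned back high and low, 256 late rises, 58 late falls, 11 early rises, 4 early falls, 16 between the low doses and 346 bent. Without control replicates 2 and 3, the highest in correlation with GC content (chosen after seeing the data), there were 116 against control, 6 turned back low, 17 early rises and 7 early falls.

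Whether the replicate numbers pair the samples was not tested. Same-numbered samples correlated between -0.0347 and 0.044 in their deviations, with a median of 0.0153 against -0.00137 for other numbers. Of the 20 samples, 7 correlated best with their own number. With the replicate block, 24 and 19 genes turned back high and low and 66 differed between the low doses; the block with the GC and length correction gave 267 against control, 22 and 7 turned back, 238 late falls, 20 early rises, 9 early falls and 137 between the low doses.

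Leaving out each library in turn gave 169 to 471 genes for low doses against control, lowest without control replicate 3 (169) and also under 270 without control replicate 1 (246), control replicate 2 (235) and SPARC 0.5 replicate 4 (229). Turned-back high genes ranged from 6 (without SPARC 0.5 replicate 4) to 22 (without SPARC 5 replicate 4), with 7 without control replicate 1, control replicate 3 or SPARC 0.05 replicate 2. Turned-back low genes ranged from 4 (without SPARC 0.5 replicate 4) to 13, with 5 without SPARC 0.05 replicate 2 or SPARC 5 replicate 1, 6 without control replicate 3 and 7 without SPARC 5 replicate 4. Early rises ranged from 20 (without SPARC 0.5 replicate 4) to 42, with 22 without control replicate 3. Early falls ranged from 10 (without control replicate 2) to 23, with 13 without control replicate 3, SPARC 0.05 replicate 2 or SPARC 0.5 replicate 4. Genes that differed between the low doses ranged from 15 (without SPARC 0.05 replicate 2 or SPARC 0.5 replicate 4) to 58, with 19, 23 and 20 without SPARC 0.05 replicates 1, 3 and 5 and 23 without SPARC 0.5 replicate 5. The cause of these shifts was not tested.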

Other observations

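Over all genes 0.859% were called higher and 1.98% lower at the low doses. After the GC correction 246 of all 22938 genes were called higher and 329 lower. Among 30 splicing genes 3 were called, all higher (median 0.0222, 22 positive): HNRNPA1, SRRM1, a late fall (0.07), and SRSF11 (0.07). After the GC correction SRSF11 did not pass (0.0495, adjusted p = 0.216), SRRM2 did (0.0619, adjusted p = 0.000916), and the median was 0.0116. Among 23 nuclear long noncoding RNAs, MALAT1 and GAS5, host of many small nucleolar RNAs and a late fall at 0.10 (adjusted p = 0.000653), were called (median 0.0133). Signalling lists held single genes: the ligand JAG1 lower and NRARP, a feedback target, higher of 15 Notch genes (median 0.00994), SFRP1 and WNT7A lower of 27 Wnt genes (median -0.0739), TP53I3 lower of 23 p53 genes (median -0.0185), and NDRG1 lower of 26 hypoxia genes (median -0.0389). After the GC correction the Notch list held 2 higher and 1 lower, and the Wnt list 1 higher and 2 lower. Of 31 interferon response genes 1 was called higher and 1 lower, the latter being STAT2, a transcription factor and late rise at -0.21 (median of the list -0.012, and 0.00555 after the GC correction). After that correction 1 interferon gene was called higher and 2 lower. Of 24 ATF4 targets, SLC7A11 and PSAT1, which makes serine, were higher and CEBPB lower (median -0.000258, and 0.0129 after the GC correction). CEBPB did not pass after that correction (-0.0633, adjusted p = 0.3), and 3 ATF4 targets were then called, all higher. The circadian clock (0 of 19, median 0.0135, and -0.00135 after the GC correction), metallothioneins (0 of 12, median -0.0203), structural noncoding RNAs (0 of 14, median -0.00109, and 0.0135 after the correction) and mitochondrial ribosomal RNAs (0 of 2, median 0.0236) held no call.

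Markers of other cell types gave 2 calls, both lower at the low doses: COL1A1 of 8 stromal genes (median 0.00909) and KRT7, a simple-epithelium keratin and late rise (-0.31, adjusted p = 1.19e-15), of 11 conjunctival genes (median -0.0486). After the GC correction KRT18 of the conjunctival list was also called, higher at the low doses (0.0757, adjusted p = 0.00265). The summed level of the conjunctival list was 864 to 985 CPM in control and 1370 to 1410 at SPARC 5. At SPARC 0.05 it was 917 to 955 and at SPARC 0.5 it was 1010 to 1060. KRT7 alone made up most of that sum, at 556 to 651 CPM in control and 1070 to 1120 at SPARC 5. KRT18 of the same list was lower at SPARC 5, at 263 to 277 CPM against 288 to 320 in control. The stromal list summed to 59.8 to 63.6 CPM in control and 59.3 to 69.4 at SPARC 5. None of 6 immune (median 0.23) or 7 endothelial and melanocyte markers (median -0.125) was called.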
